A study of Mus musculus with 12 samples.

Results

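The metallothionein genes Mt1 and Mt2 were followed in the livers of female and male mice given a statin. With them were 5 genes that encode a zinc-sensing factor or members of the zinc transporter families. The 7 genes (Mt1, Mt2, Mtf1, Slc30a1, Slc30a10, Slc39a4 and Slc39a14) were picked by name from the 48526 genes of the deposited expression table because of how statin and chow livers compared within each sex, so their statin values are given here as a description with no test. All 7 were among the 11968 genes above 1 CPM (counts scaled to the total of the library) in at least 6 livers, which were the genes tested.

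Metallothioneins are small cysteine-rich proteins that bind zinc and copper, and the liver is among their main sites of synthesis. Zinc that enters the cell through importers of the Slc39 (ZIP) family and leaves through exporters of the Slc30 (ZnT) family is sensed by the transcription factor MTF1, which binds metal response elements in the promoters of metallothionein genes and of Slc30a1. Metallothionein genes also respond to glucocorticoids and to inflammatory signals in hepatocytes.

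The series holds 12 livers of C57BL/6J mice, an inbred strain, in 4 groups of 3: female chow, female statin, male chow and male statin. The labels name no engineered allele in any group, the mice entered the diets as young adults, and the statin groups ate chow that held simvastatin, which blocks the first committed enzyme of cholesterol synthesis, for 4 weeks. The dose was 0.1 g per kg. The sample labels state it by body weight and the methods by food weight, and the labels name one diet formulation for both diets. The study asked whether sex alters how mice respond to a statin, and each liver came from a different mouse.

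Poly(A) RNA was sequenced, and the deposited counts came to between 46066381 and 60419223 per liver. The methods give a lower average read depth, and the sources used here do not explain the difference. Levels below are CPM after TMM scaling, which adjusts each library by a trimmed mean of log ratios, and 3 counts amounted to at most 0.0651 CPM. The 5 hepatocyte markers (Alb, Apoa1, Ttr, Cps1, Cyp2e1) summed to between 79866 and 157312 CPM, whereas 5 neutrophil markers summed to at most 5.01 CPM and 5 pancreatic acinar markers to at most 2.05 CPM.

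Mt2 (chr8:94172664-94173568, GRCm38) and Mt1 (chr8:94179082-94180327) lie head to tail on the + strand with 5513 bases between them. The 250 bases before the RefSeq transcript start (assembly GRCm38.p6) are shown for both metallothionein genes, whose levels moved together across the livers, and for the zinc exporter Slc30a1. Capitals mark the core of the metal response element, TGCACNC or TGCGCNC on either strand.
Mt1, chr8:94178839-94179088, + strand: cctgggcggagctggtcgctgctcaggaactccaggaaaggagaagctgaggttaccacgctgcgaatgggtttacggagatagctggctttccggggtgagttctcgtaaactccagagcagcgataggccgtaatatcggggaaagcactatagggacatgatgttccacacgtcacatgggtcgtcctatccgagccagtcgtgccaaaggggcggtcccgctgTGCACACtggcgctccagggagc
Mt2, chr8:94172368-94172617, + strand: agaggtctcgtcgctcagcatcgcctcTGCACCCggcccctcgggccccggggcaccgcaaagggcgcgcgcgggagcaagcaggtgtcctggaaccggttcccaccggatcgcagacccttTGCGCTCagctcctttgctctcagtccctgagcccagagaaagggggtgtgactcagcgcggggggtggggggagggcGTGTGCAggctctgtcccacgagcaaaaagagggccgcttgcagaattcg
Slc30a1, chr1:191906531-191906780, + strand: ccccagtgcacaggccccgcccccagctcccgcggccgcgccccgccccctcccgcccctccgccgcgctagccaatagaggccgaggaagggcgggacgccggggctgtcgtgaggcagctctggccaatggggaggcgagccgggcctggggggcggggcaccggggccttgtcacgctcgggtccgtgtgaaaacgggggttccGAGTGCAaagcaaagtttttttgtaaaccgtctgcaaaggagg

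Mt2 held 3 of these cores, with the first bases at -223, -128 and -50 from the start. Mt1 held 1, from -23 to -17, and Slc30a1 held 1, from -43 to -37. Slc30a10 (chr1:185454598-185454847) held 3, of which 2 overlap on opposite strands, and Mtf1 (chr4:124802299-124802548) held 0. Slc39a4 and Slc39a14 had no entry in the promoter table, so 5 of the 7 genes were searched. Of 32851 RefSeq promoters of this length, 21.4% held at least 1 core and 1.26% held at least 3. GENCODE also annotates Mt1 transcripts that start 122 and 152 bases downstream of the RefSeq start. It has Mt2 transcripts that start 46 and 242 bases downstream. The sequence between these starts was not searched. The counts for Mt1 and Mt2 are thus of the RefSeq windows alone and can miss cores before the downstream starts. They do not show that Mt1 holds few such cores.

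Mt1 was the most abundant of the 7 genes per length of transcript, and in males its statin livers lay below its chow livers. In female chow livers Mt1 measured 378, 394 and 218 CPM (330 ± 97.6, SD, n = 3). In female statin livers it measured 197, 437 and 617 CPM (417 ± 211, SD, n = 3). The female statin livers thus lay both below and above the female chow livers. In male chow livers Mt1 measured 168, 196 and 145 CPM (170 ± 25.6, SD, n = 3). In male statin livers it measured 83.2, 86.3 and 90.2 CPM (86.6 ± 3.55, SD, n = 3). Every male statin liver was below every male chow liver. The fitted log2 fold change of statin against chow was -0.97 (SE 0.34) in males and 0.34 (SE 0.33) in females.

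Mt2 showed the same order in males with a larger step. Female chow livers held 268, 308 and 151 CPM (242 ± 81.5, SD, n = 3). Female statin livers held 103, 235 and 322 CPM (220 ± 110, SD, n = 3), a range that enclosed that of the chow livers. Male chow livers held 90.5, 111 and 77.8 CPM (93.1 ± 16.8, SD, n = 3). Male statin livers held 36.9, 39.4 and 24.7 CPM (33.6 ± 7.84, SD, n = 3). As for Mt1, the male groups did not overlap and the female groups did. The log2 fold change of statin against chow was -1.47 (SE 0.37) in males, a level 2.77-fold lower, and -0.14 (SE 0.36) in females. These values rest on 4055 to 31049 counts per liver for Mt1 and 1269 to 16214 for Mt2, so counting error was small beside the spread between livers. In whole liver, fewer cells of a type and less RNA per cell cannot be told apart.

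**Figure D1:**
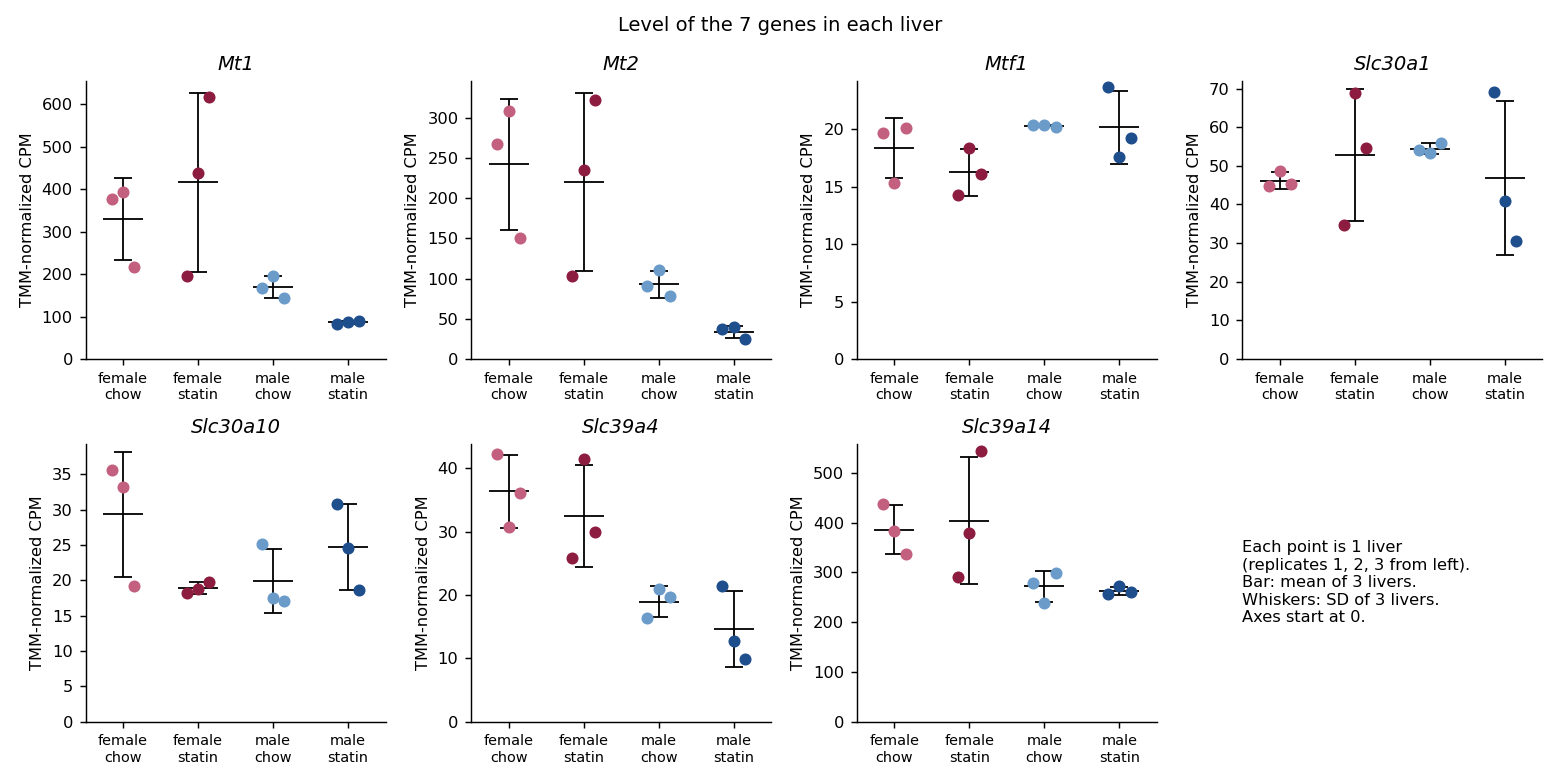
Level of the 7 genes in each of the 12 livers (y axis, TMM-normalized CPM from 0; x axis, the 4 groups), with points for livers, a bar for the mean and whiskers for the SD of 3. The male statin livers held 83.2 to 90.2 CPM of Mt1, below the 145 to 196 CPM of male chow livers, while the female diet groups overlap for all 7 genes on this scale (in CPM without TMM scaling Slc30a10 is the exception).

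Both metallothioneins varied more between female livers than between male livers. Female chow replicate 3 held the lowest Mt1 and Mt2 of its group, and female statin replicate 1 held the lowest of the female statin group. Female statin replicate 3 held the highest Mt1 and Mt2 of the 12 livers. Summed, the 2 genes came to 572 ± 178 CPM in females on chow and 637 ± 321 in females on statin (SD, n = 3 each). In males the sum was 263 ± 42.4 on chow and 120 ± 5.36 on statin.

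The ratio of Mt1 to Mt2 counts within a liver, a value that scaling cannot change, varied less than either level in 3 of the 4 groups and more in male statin. This ratio was examined after the levels had been seen and was not tested. In female chow livers there were 1.41, 1.28 and 1.44 Mt1 counts for each Mt2 count (1.38 ± 0.0871, SD, n = 3). In female statin livers there were 1.90, 1.86 and 1.91 (1.89 ± 0.0266, SD, n = 3). The female groups did not overlap in this ratio, although they overlapped in the level of each gene. Male chow livers had ratios of 1.86, 1.77 and 1.87 (1.83 ± 0.0543, SD, n = 3). Male statin livers had ratios of 2.26, 2.19 and 3.65 (2.70 ± 0.826, SD, n = 3), all above the male chow livers, with replicate 3 far above the other 2. In each sex, then, Mt2 was lower relative to Mt1 in every statin liver than in every chow liver.

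**Figure D2:**
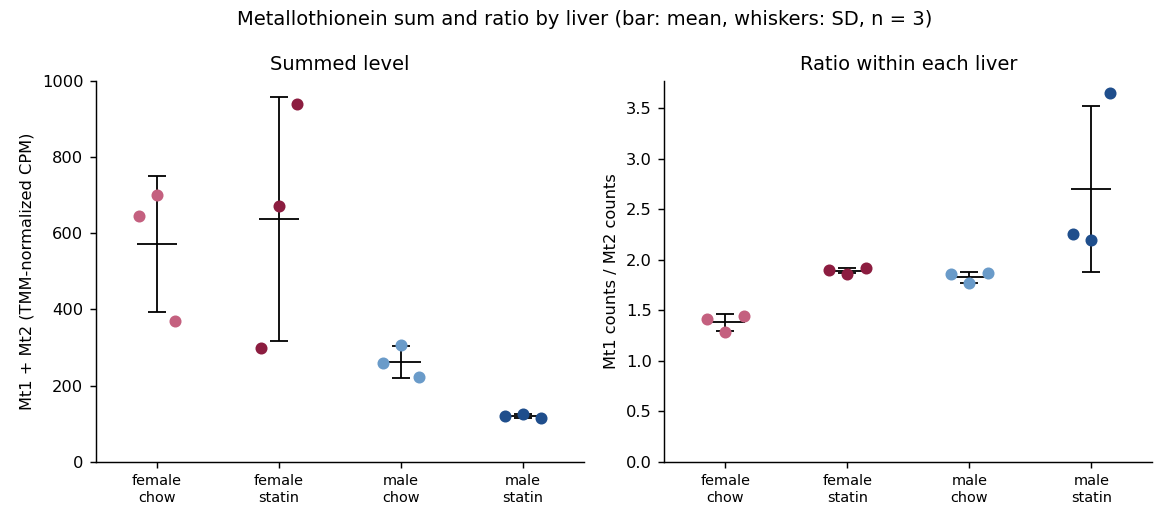
Left, summed Mt1 and Mt2 level in each liver (y axis, TMM-normalized CPM); right, Mt1 counts divided by Mt2 counts in each liver (y axis, ratio), by group, with bars for the mean and whiskers for the SD of 3 livers. The summed levels of the female groups overlap, and their ratios (1.28 to 1.44 on chow, 1.86 to 1.91 on statin) do not.

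Mtf1, which encodes the zinc-sensing transcription factor (chr4:124802104-124849800), had the smallest standard errors of the 7 genes. Female chow livers held 19.7, 15.4 and 20.1 CPM (18.4 ± 2.63, SD, n = 3) and female statin livers 14.3, 18.4 and 16.1 CPM (16.3 ± 2.07, SD, n = 3). Male chow livers held 20.4, 20.4 and 20.2 CPM (20.3 ± 0.0812, SD, n = 3) and male statin livers 23.7, 17.5 and 19.2 CPM (20.2 ± 3.20, SD, n = 3). Statin and chow livers overlapped in both sexes. The log2 fold change of statin against chow was -0.18 (SE 0.15) in females and -0.01 (SE 0.15) in males. The gene 1110065P20Rik overlaps Mtf1 on the opposite strand at 13.1 to 22.6 CPM, and whether the counting used strand is not given in the sources used here.

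Slc30a1 encodes ZnT1, the zinc exporter of the plasma membrane (chr1:191906767-191913247). Its chow livers were close together, at 44.8, 48.6 and 45.3 CPM in females (46.2 ± 2.09, SD, n = 3) and 54.0, 53.3 and 56.0 CPM in males (54.4 ± 1.38, SD, n = 3). Its statin livers were not, at 34.7, 68.8 and 54.6 CPM in females (52.7 ± 17.1, SD, n = 3) and 69.0, 41.0 and 30.6 CPM in males (46.9 ± 19.9, SD, n = 3). In each sex the statin livers lay on both sides of the chow livers. The log2 fold change of statin against chow was 0.19 (SE 0.27) in females and -0.22 (SE 0.27) in males, and the sign depended on which liver was kept, with -0.05 without female statin replicate 2 and 0.01 without male statin replicate 3.

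Slc30a10, best known as an exporter of manganese (chr1:185454848-185468762), had the largest fitted difference between statin and chow of the 7 genes in females, although its livers overlapped. Female chow livers held 35.6, 33.2 and 19.2 CPM (29.3 ± 8.84, SD, n = 3) and female statin livers 18.2, 18.8 and 19.8 CPM (18.9 ± 0.813, SD, n = 3). Female chow replicate 3 fell within the range of the statin livers. In the deposited CPM without TMM scaling it did not, with 17.8 to 18.6 in female statin and 19.1 to 34.0 in female chow livers. Male chow livers held 25.2, 17.4 and 17.1 CPM (19.9 ± 4.56, SD, n = 3) and male statin livers 30.8, 24.5 and 18.7 CPM (24.7 ± 6.07, SD, n = 3), which overlapped. The log2 fold change of statin against chow was -0.63 (SE 0.24) in females and 0.31 (SE 0.24) in males.

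Slc39a4 encodes ZIP4, the importer that takes up dietary zinc in the gut (chr15:76612383-76617384, - strand). Female chow livers held 42.2, 30.7 and 36.2 CPM (36.4 ± 5.74, SD, n = 3) and female statin livers 25.9, 41.4 and 30.0 CPM (32.4 ± 8.05, SD, n = 3). Male chow livers held 16.3, 21.0 and 19.6 CPM (19.0 ± 2.43, SD, n = 3) and male statin livers 21.4, 12.7 and 9.97 CPM (14.7 ± 5.99, SD, n = 3). Diet groups overlapped in both sexes, and every female liver was above every male liver. The log2 fold change of statin against chow was -0.17 (SE 0.26) in females and -0.37 (SE 0.26) in males.

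Slc39a14 encodes ZIP14, an importer of zinc, manganese and iron that hepatocytes raise in inflammation (chr14:70303469-70351425, - strand). Female chow livers held 437, 383 and 337 CPM (386 ± 49.995, SD, n = 3) and female statin livers 290, 379 and 543 CPM (404 ± 128, SD, n = 3). Male chow livers held 279, 238 and 299 CPM (272 ± 30.8, SD, n = 3) and male statin livers 256, 272 and 259 CPM (262 ± 8.25, SD, n = 3). The diet groups overlapped in both sexes, and within female statin the order of the livers was that of Mt1 and Mt2. The log2 fold change of statin against chow was 0.07 (SE 0.20) in females and -0.05 (SE 0.20) in males. Of 10705 windows of 50 bases in Slc39a14 transcripts, 0.187% also occurred in transcripts of another gene, and none of the windows of the other 6 genes did.

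Across the 7 genes, 0 had female statin livers all above or all below the female chow livers after TMM scaling, against 6.03% and 5.97% of all genes tested. In males 2 of 7, Mt1 and Mt2, had every statin liver below every chow liver, against 4.30% of all genes, and these 2 were also all that were set apart in either direction, against 7.95%. The genes were chosen on these contrasts, so nothing is read from the counts. Over all 11968 genes, edgeR called 12 genes in females (0.100%) and 0 in males (0.00%) at an adjusted p under 0.05, with 1256 and 234 at an unadjusted p under 0.05, and DESeq2 called 270 and 4.

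Per kilobase of transcript, the metallothioneins stood above the transporters in each group, followed by Slc39a14. In female chow livers the means were 601 CPM per kilobase for Mt1, 474 for Mt2, 78.3 for Slc39a14, 13.2 for Slc39a4, 8.81 for Slc30a1, 5.02 for Slc30a10 and 2.41 for Mtf1. In male statin livers the mean of Mt2, 65.8 CPM per kilobase, came near that of Slc39a14, 53.3, while Mt1 stood at 158. Slc30a1 stood above Slc39a4 in both male groups, at 10.4 and 6.90 CPM per kilobase on chow and 8.94 and 5.35 on statin. It stood below Slc39a4 in both female groups, with 10.05 and 11.79 CPM per kilobase on statin. Slc30a10 and Mtf1 had the lowest 2 means in all 4 groups, at 4.23 and 2.64 CPM per kilobase in male statin livers.

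The comparison of female with male livers is not part of the rule that chose the genes and was tested, although it uses the same livers as the statin comparisons. Mt2 and Slc39a4 were higher in females on chow, and Mt1, Mt2 and Slc39a4 were higher in females on statin. On chow, Mt2 was 2.60-fold higher in females (log2 fold change 1.38, SE 0.37, edgeR adjusted p = 0.0333) and Slc39a4 1.92-fold higher (0.94, SE 0.26, adjusted p = 0.0384). Both genes were higher in 3 of 3 female livers than in any male liver. Mt1 was also higher in every female than in every male chow liver, by 0.96 on the log2 scale (SE 0.33), but missed the threshold (adjusted p = 0.0911). The calls were 2 of 7, both higher in females, against 10.4% of all genes called and 5.96% called higher. At an unadjusted p under 0.05 there were 5 of 7, against 24.9% of all genes.

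On statin, Mt1 was 4.82-fold higher in females (log2 fold change 2.27, SE 0.35, adjusted p = 0.00202) and Mt2 6.54-fold higher (2.71, SE 0.39, adjusted p = 0.00122). Slc39a4 was 2.21-fold higher (1.14, SE 0.26, adjusted p = 0.0219). For all 3 genes each female statin liver was above each male statin liver. By p-value Mt2 was number 131 and Mt1 number 158 of 11968 genes. The calls were 3 of 7, all higher in females, against 6.28% of all genes called and 4.38% called higher. The male statin livers with the low metallothionein levels enter this comparison. For Mt1 and Mt2 its sizes, p-values and ranks are thus partly set by the values on which the genes were chosen. The same holds for the count of 3 of 7. These values are no independent support for a sex difference on statin.

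**Figure D3:**
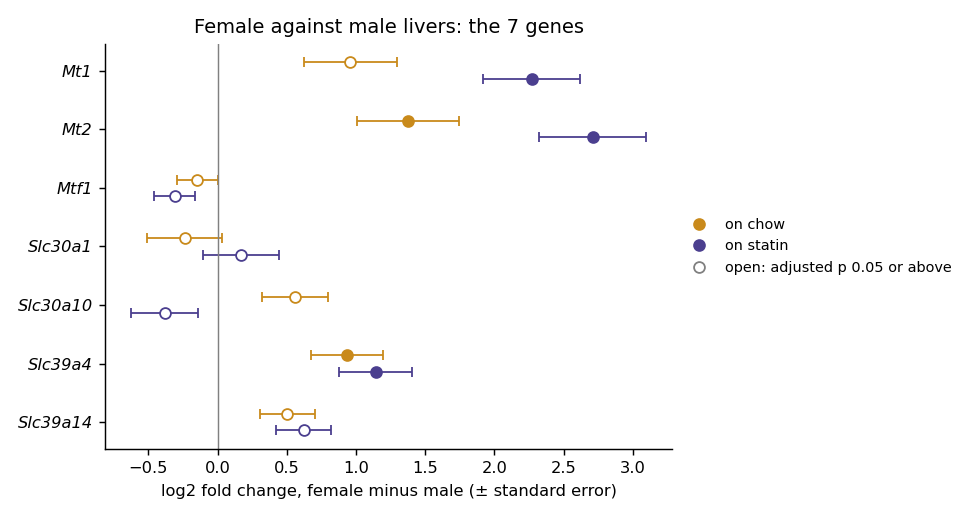
Difference between female and male livers for the 7 genes (x axis, log2 fold change of female minus male with its standard error; filled points, edgeR adjusted p under 0.05; 3 livers a group). Mt1 stood at 0.96 on chow and 2.27 on statin, Mt2 at 1.38 and 2.71 and Slc39a4 at 0.94 and 1.14. The statin points of Mt1 and Mt2 use the low male statin livers on which the genes were chosen.

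The remaining 4 genes did not pass the edgeR test between the sexes in the fit reported. Some alternative analyses, given below, called Slc39a14 or Slc30a10. Slc39a14 was higher in each female than in each male liver on chow (log2 fold change 0.50, SE 0.20, adjusted p = 0.135) and on statin (0.62, SE 0.20, adjusted p = 0.0961). Slc30a10 differed by 0.56 on chow (SE 0.24, adjusted p = 0.172) and by -0.38 on statin (SE 0.24, adjusted p = 0.447). Its sex groups overlapped on both diets. Slc30a1 differed by -0.24 on chow (SE 0.27, adjusted p = 0.654) and by 0.17 on statin (SE 0.27, adjusted p = 0.825), and Mtf1 by -0.15 (SE 0.15, adjusted p = 0.610) and -0.31 (SE 0.15, adjusted p = 0.288). On chow every female liver was below every male liver for Slc30a1 and Mtf1. In all, 6 of 7 genes had sex groups that did not overlap on chow against 37.7% of all genes. Of these, 4 were higher in females (18.5% of all genes) and 2 lower (19.1%). On statin 4 of 7 did not overlap, all higher in females, against 19.6% of all genes in either direction and 11.1% higher. Without TMM scaling, a comparison added after the data were seen, Mtf1 overlapped on chow, and the female livers lay below the male livers on statin for Mtf1 and Slc30a10. For the other members these orders held.

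The calls on chow were close to the threshold. There the adjusted p of Mt2 was 0.0640 to 0.122 when either of female chow replicates 1 and 2 or any male chow liver was left out, and that of Slc39a4 was 0.0584 to 0.144 when any one chow liver was left out and 0.0518 without male statin replicate 2. On statin the adjusted p was at or below 0.0203 for Mt1 and 0.0135 for Mt2 in all alternative analyses, which says little of stability since the low male statin livers behind the choice of both genes enter each of them. That of Slc39a4 was 0.0644 without female statin replicate 2, 0.0989 without male statin replicate 2 and 0.0748 without male statin replicate 3.

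Some markers of non-parenchymal cells also differed between the sexes. Called higher in females were 2 of 5 Kupffer cell markers on chow and 4 of 5 on statin, 2 and 0 of 5 stellate cell markers and 1 and 0 of 5 endothelial markers, against 5.96% and 4.38% of all genes. The 5 Kupffer cell markers (Clec4f, Vsig4, Cd5l, Adgre1, Timd4) summed to 424 to 521 CPM in female chow and 374 to 646 in female statin, above 223 to 338 in male chow and 223 to 274 in male statin. The 5 stellate cell markers summed to 274 to 332 and 214 to 305 CPM in the female groups and to 178 to 193 and 171 to 228 in the male groups, and the 5 endothelial markers to 225 to 245, 188 to 276, 147 to 207 and 156 to 209 CPM. The hepatocyte markers summed to 99028 to 133154 CPM in females on chow and 116391 to 157312 on statin, and to 79866 to 129440 and 83226 to 97884 CPM in males, with 2 of 5 called lower in females on chow and 0 on statin, against 4.49% and 1.90% of all genes called lower. None of these markers was at 0 in every liver, and their part in the sex differences of the 7 genes was not tested.

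The other genes of both transporter families, listed in full, were called about as often as all genes tested, and Slc39a5 had the largest differences among them. Of 20 ZnT and ZIP genes that are not among the 7, 15 were tested and 5 (Slc30a2, Slc30a3, Slc30a8, Slc39a2 and Slc39a12) were below the filter. On chow 2 of 15 were called, against 10.4% of all genes, and both were higher in females (5.96% of all genes): Slc39a5 (log2 fold change 1.84, SE 0.25, edgeR adjusted p = 0.000697) and Slc39a6 (0.91, SE 0.24, adjusted p = 0.0341). On statin 1 of 15 was called, against 6.28% of all genes (4.38% higher in females), and it was Slc39a5 (3.25, SE 0.26, adjusted p = 9.36e-06). The median log2 fold change of the 15 genes was 0.01 on chow and -0.02 on statin, and that of all genes tested was -0.01 on both diets.

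Slc39a5 encodes ZIP5, a zinc importer of the basolateral membrane of gut and pancreatic cells, and it was scarce in liver. Female chow livers held 6.88, 4.95 and 5.41 CPM (5.75 ± 1.01, SD, n = 3) and female statin livers 12.2, 9.90 and 7.11 CPM (9.73 ± 2.54, SD, n = 3). Male chow livers held 1.72, 1.37 and 1.73 CPM (1.60 ± 0.204, SD, n = 3) and male statin livers 1.11, 0.716 and 1.25 CPM (1.02 ± 0.275, SD, n = 3). Every female statin liver was thus above the female chow livers (6.03% of all genes tested). Every male statin liver was below the male chow livers (4.30%). Neither difference passed adjustment over all genes, with a log2 fold change of 0.76 in females (SE 0.24, unadjusted p = 0.0072, edgeR adjusted p = 0.250) and -0.65 in males (SE 0.26, unadjusted p = 0.0295, adjusted p = 1.00).

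Other transporters passed only an unadjusted p under 0.05 and not the adjusted threshold. Slc39a1, the plasma membrane importer ZIP1, was higher by 0.26 in female statin than in female chow livers (SE 0.11, edgeR adjusted p = 0.395) and by 0.25 in female than in male statin livers (SE 0.11, adjusted p = 0.214), and Slc39a11 was lower in female statin livers (log2 fold change -0.22, SE 0.10, adjusted p = 0.467). Slc30a5 and Slc30a9 differed by -0.27 (SE 0.11, edgeR adjusted p = 0.175) and -0.31 (SE 0.12, adjusted p = 0.151) between female and male statin livers, where 19.4% of all genes passed the unadjusted threshold. In the statin comparisons 0 of the 15 genes were called in either sex, and at an unadjusted p under 0.05 there were 3 of 15 in females and 1 in males, against 10.5% and 1.96% of all genes. The other metallothionein genes were at or near 0, with Mt4 at 0 counts in the 12 livers, which allows up to 0.0651 CPM in the shallowest, and Mt3 at 0.0359 CPM or less, under the level of 3 counts.

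**Figure D4:**
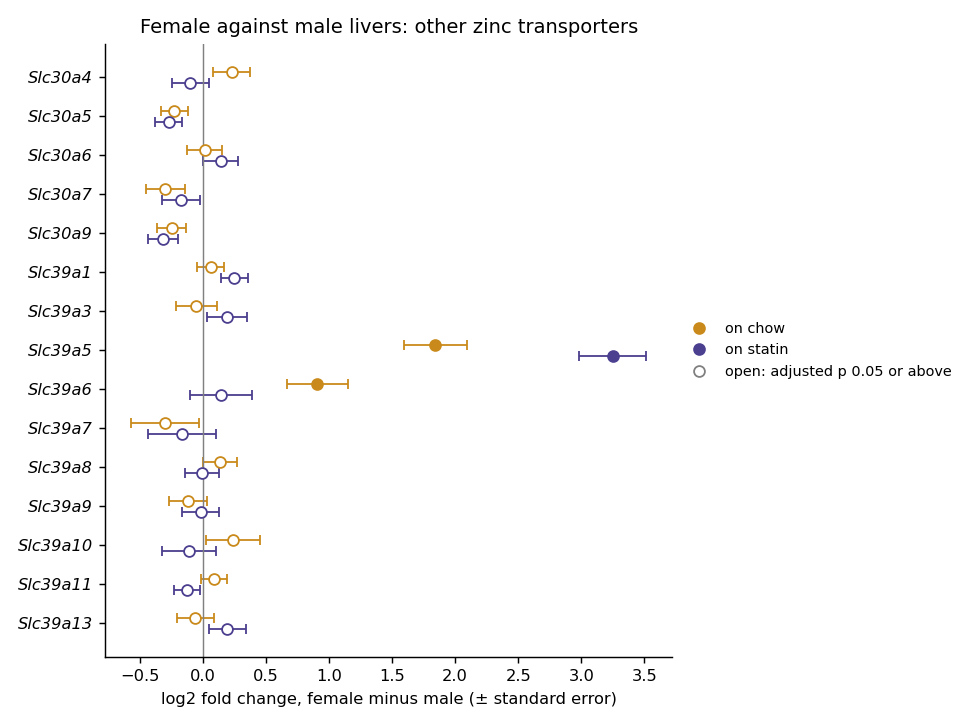
Difference between female and male livers for the 15 other zinc transporter genes tested (x axis, log2 fold change of female minus male with its standard error; filled points, edgeR adjusted p under 0.05; 3 livers a group). Slc39a5 stood at 1.84 on chow and 3.25 on statin, and Slc39a6 at 0.91 on chow.

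The 7 genes did not vary as one group from liver to liver. Across the 12 livers, which span both sexes and diets, Pearson's r of log2(CPM + 1) was 0.97 between Mt1 and Mt2 and 0.93 after the group means were removed. Mt1 and Slc39a14 had r = 0.87 (0.78 within groups). Mt1 and Slc39a4 had r = 0.80 but only 0.17 within groups, and Mt1 and Mtf1 had r = -0.46 and 0.08 within groups. Slc30a1 and Slc39a4 had r = 0.41 over all livers and 0.85 within groups. These are descriptions, since the 12 points fall into 4 groups of 3 that share a sex and a diet.

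Among the 7641 genes that averaged 10 CPM or more, those whose pattern over the 12 livers was most like Mt1 were Mt2, Slco1a4 (r = 0.94, 0.74 within groups), B4galt1 (0.93, 0.87), Tmem98 (0.91, 0.62) and Fgl1 (0.91, 0.69). Those most like Mt2 were Mt1, St5 (r = 0.93, 0.53 within groups), Lcn2 (0.91, 0.70), Fgl1 (0.90, 0.66) and Tmem176a (0.90, 0.26). Only Fgl1 was in both lists beside the metallothioneins themselves. Each r was lower once the group means were taken out.

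The livers also differed in how transcripts of different length were represented, and Slc30a1 and Slc39a4 moved with it in the statin groups. The mean log2 deviation of 463 genes with transcripts shorter than 1000 bases minus that of 2538 genes longer than 4000 bases was -0.20 to 0.20 in females on chow and -0.47 to 0.46 in females on statin. It was -0.29 to 0.15 and -0.53 to 0.44 in males. Slc30a1, whose transcript has 5244 bases, and Slc39a4, with 2750, were highest in the liver with the lowest value in both statin groups (female statin replicate 2 and male statin replicate 1). They were lowest in the liver with the highest value (female statin replicate 1 and male statin replicate 3). In the chow groups this order did not hold for both genes: in female chow Slc39a4 kept it, while Slc30a1 was lowest in replicate 1, which had the lowest value, and highest in replicate 2, which had the highest. In male chow neither gene kept it, since Slc39a4 was highest and Slc30a1 lowest in replicate 2, whose value lay between the others. Mt1 and Mt2 have transcripts of 549 and 511 bases, and both were lowest of their group in female statin replicate 1 too, while in male statin replicate 3 Mt2 was lowest and Mt1 highest. With levels corrected for transcript length, Mt2 on chow gave 1.33 (SE 0.44) for female against male at an adjusted p of 0.0653, and the other calls among the 7 genes held.

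**Figure D5:**
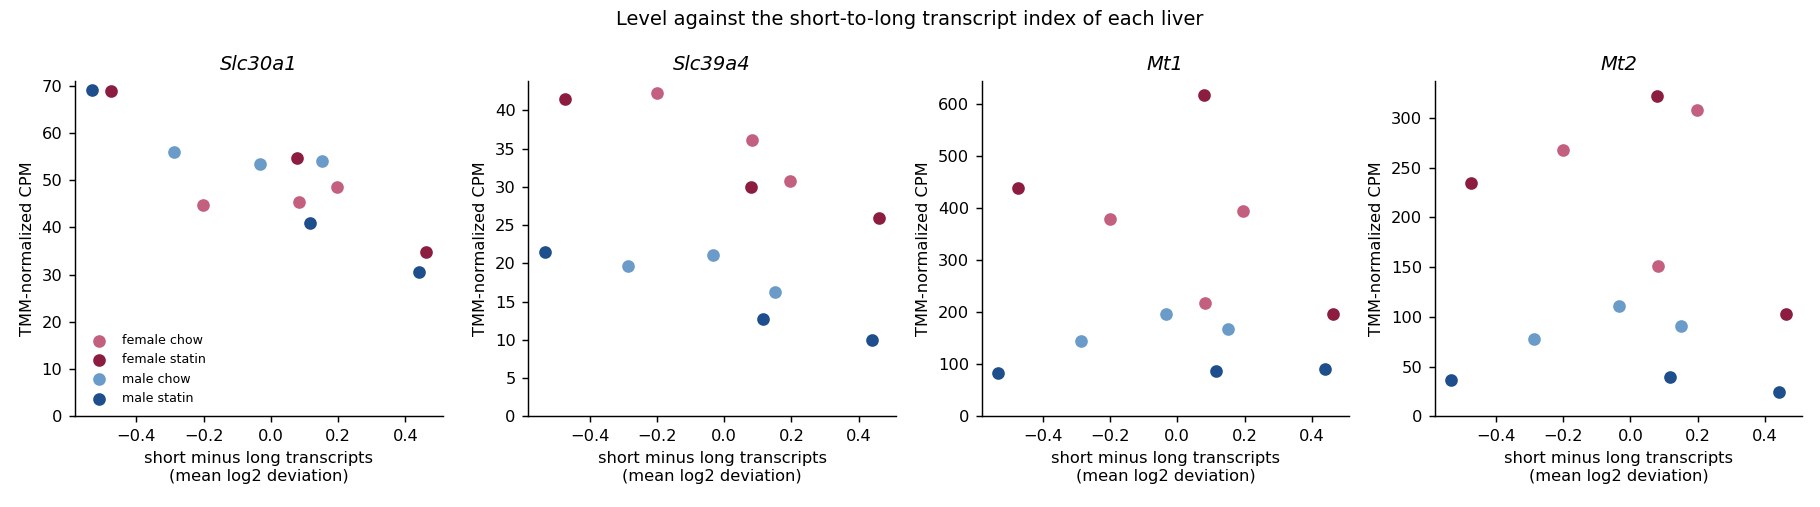
Level of Slc30a1, Slc39a4, Mt1 and Mt2 (y axis, TMM-normalized CPM) against the mean log2 deviation of short minus long transcripts (x axis) in each of the 12 livers, coloured by group. Slc30a1 was highest, at 69.0 and 68.8 CPM, in the livers with the lowest values on the x axis, -0.53 and -0.47, and the male statin livers held 83.2 to 90.2 CPM of Mt1 across the whole axis.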

How the data were processed

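Liver RNA of 12 mice was sequenced, with 3 livers in each of 4 groups taken from the sample titles. The authors deposited CPM values of all genes and a table of counts that is described as TMM-normalized but holds whole reads: 100% of the CPM values gave whole reads (tolerance 0.01), and 0 counts differed from them. The submitters' processing notes name GRCm38, STAR 2.4.1a, HTSeq and edgeR 3.28.1, with no roles. The total count was between 46066381 and 60419223, and the authors kept genes above 1 CPM in at least 6 livers.

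The deposited counts of 11968 genes were fitted with edgeR 4.0.16 (quasi-likelihood test, TMM, all 4 groups in one fit, no covariate). Tests were two-sided, with Benjamini-Hochberg adjustment over all genes and a threshold of 0.05. Standard errors were derived as |log2 fold change| / sqrt(F). The sex contrasts were tested for the 7 genes, and the statin contrasts were described. The 7 genes and all lists were chosen with earlier results of these data known. Beside the 7 genes and the zinc transporter families, the text names at most 6 genes a list (copper, glucocorticoid, acute phase) by smallest unadjusted p under 0.05. Socs3 is an exception, named in addition to the acute phase genes of this rule after its value was seen. The 5 genes most like Mt1 and Mt2 are also named. Positions and lengths are from GENCODE vM21 and promoters from RefSeq. On simulated counts with 200 of 11968 genes changed between the sexes on chow, edgeR recovered 136 changed by 1 on the log2 scale (2 false calls) and 200 changed by 2 (11 false calls).

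The livers of one group are separate mice. Same-numbered livers of different groups share only a number. Alternatives were DESeq2 1.42.0 and its size factors, library size alone, limma 3.58.1 with pseudocount 1 or 0.1, no filter or a mean of at least 10 CPM, a correction for transcript length, each pair of groups alone, the replicate number as a block, and leaving out each liver. R 4.3.3 and Python 3.11.15 were used. All samples and value columns were used.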

Additional observations from a re-analysis of the deposited data

Results flagged for a closer look

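Slc39a5, a zinc importer outside the 7 genes, was flagged because statin and chow livers were ordered in opposite ways in the sexes. Each female statin liver (7.11 to 12.2 CPM) was above the female chow livers (4.95 to 6.88), an order held by 6.03% of all genes tested. Each male statin liver (0.716 to 1.25) was below the male chow livers (1.37 to 1.73), an order held by 4.30%. The share of genes with both orders was not counted. For Slc39a5 the difference between the sexes in the statin log2 fold change was 1.41 (edgeR interaction, unadjusted p = 0.00175, adjusted p = 0.305). It did not pass adjustment over all genes. Groups of 3 livers are too small for the test of single outlying livers.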

How the results depend on the processing

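Between the sexes, 279 of 308 alternative values of the 7 genes kept direction and side of the threshold, 19 lost a call, 8 gained one and 2 changed sign. These 2 were of Slc30a1 between female and male statin livers (0.17 in the fit reported), which ranged from -0.082 (without female statin replicate 2) to 0.56 with one liver left out and gave -0.06 without male statin replicate 3. For statin against chow, which was described and not tested, 13 of 308 values changed sign. In females these were Mt1 without statin replicate 3 (-0.04), Mt2 without chow replicate 2 (0.08) or statin replicate 1 (0.21), Slc30a1 without statin replicate 2 (-0.05) and Slc39a14 without chow replicate 3 (-0.02) or statin replicate 3 (-0.19). In males they were Slc30a1 without statin replicate 3 (0.01), Slc39a14 without chow replicate 3 (0.02) and 5 values of Mtf1, which ranged from -0.15 to 0.08. Mt1 and Mt2 in males ranged from -1.07 to -0.85 and from -1.60 to -1.29. Calls were gained for Mt1 on chow without a filter (adjusted p = 0.0183), with DESeq2 (0.0281), with the pair of groups alone (0.0166) and without female statin replicate 1 (0.0171), for Slc39a14 on chow with the pair alone (0.0363) and on statin with DESeq2 (0.0370) and without female statin replicate 1 (0.0216), and for Slc30a10 on chow without female chow replicate 3 (0.0493). Slc39a4 on statin lost its call with the pair alone (0.120).

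The numbers of genes called moved more. Female against male on chow gave 1250 calls, 771 with a mean of at least 10 CPM, 1946 with DESeq2, 2151 with the pair alone and 635 to 1586 with one liver left out (fewest without male chow replicate 1). On statin it gave 751 calls, and 357, 1284, 292 and 378 to 743 (fewest without male statin replicate 2). Statin against chow in females gave 12 calls, 148 without a filter, 5 with the stricter filter, 270 with DESeq2, 0 with the pair alone and 0 to 75 with one liver left out, and in males 0 calls, 4 with DESeq2 and 0 with any liver left out. The interaction gave 0 calls, 103 without a filter, 122 with DESeq2 and 0 to 14 with one liver left out. Of the 15 other transporters, 3 passed the unadjusted threshold in females (1 with the pair alone, 1 to 4 with one liver left out) and 1 in males (0 with the stricter filter and with limma at pseudocount 1, 0 to 1 with one liver left out), and 2 on chow and 1 on statin were called between the sexes (0 and 0 with the stricter filter, which removes Slc39a5 and Slc39a6; 1 to 2 and 1 to 1 with one liver left out). Beyond that, the cause was not tested.

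With the replicate number as a block, statin against chow in females gave 5 calls, and Mt2 and Slc39a4 on chow had adjusted p-values of 0.0564 and 0.0703. Same-numbered livers did not deviate together (mean correlation -0.0917 over 18 pairs, 0.0479 over 36 pairs with different numbers). Library size alone moved the median of all genes between the sexes on statin to -0.10. With 3 livers a group, the spread between livers and not depth limits these values.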

Other observations

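Acute phase genes, which hepatocytes raise in inflammation, differed between the sexes on both diets. Of 12 genes, 8 were called on chow and 6 on statin, all higher in females, against 5.96% and 4.38% of all genes called higher. Their median log2 fold change of female minus male was 1.44 on chow and 0.96 on statin, and that of all genes tested was -0.01 on both diets. Lcn2, an iron-scavenging lipocalin, measured 240 ± 74.2 CPM in female chow and 16.4 ± 4.33 in male chow livers (SD, n = 3 each; log2 fold change 3.87, edgeR adjusted p = 3.52e-05). It measured 184 ± 58.2 and 8.76 ± 3.46 CPM on statin (4.39, adjusted p = 1.38e-05). Orm2, an acid glycoprotein of plasma, differed by 3.64 on chow (adjusted p = 9.51e-05) and 3.06 on statin (adjusted p = 0.000317), and Hpx, which binds free heme, by 0.90 (adjusted p = 0.00453) and 1.09 (adjusted p = 0.00175). Saa1 and Saa2, serum amyloid genes whose reads can be shared between near-identical copies, differed by 4.19 and 5.07 on chow, and Il1rn, the interleukin-1 receptor antagonist, by 1.30. For statin against chow 0 of the 12 genes were called by edgeR in either sex, against 0.100% of all genes in females and 0.00% in males. At an unadjusted p under 0.05 there was 1 in each sex, Socs3 in females (10.5% of all genes) and Lcn2 in males (1.96%), both lower on statin (Socs3 is named after its value was seen).

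Of 10 glucocorticoid-responsive genes, 1 was called between the sexes on chow, Cdkn1a (log2 fold change 1.81, edgeR adjusted p = 0.0404), against 10.4% of all genes, and 0 on statin, against 6.28%. On chow 4 had an unadjusted p under 0.05 (24.9% of all genes), all higher in females. On statin 5 had an unadjusted p under 0.05 (19.4% of all genes), of which 2 were higher and 3 lower in females. The median log2 fold change of female minus male was 0.50 on chow and -0.10 on statin, against -0.01 for all genes on both diets. Tat, the tyrosine aminotransferase, measured 738 ± 98.4 CPM in female statin livers, below every female chow liver (log2 fold change -0.91, unadjusted p = 0.00638, adjusted p = 0.241). Zbtb16 measured 2.89, 47.2 and 42.5 CPM in male statin and 3.94, 2.04 and 11.2 CPM in male chow livers (2.43, unadjusted p = 0.0169, adjusted p = 1.00), so the groups overlapped and the difference rested on 2 livers. For statin against chow 0 of the 10 were called by edgeR in either sex, with 1 lower in females (Tat) and 1 higher in males at an unadjusted p under 0.05, against 10.5% and 1.96% of all genes. The median log2 fold change of the list was -0.21 in females and 0.28 in males, and that of all genes 0.01 and 0.00. Fkbp5 differed by 1.15 between female and male chow livers (adjusted p = 0.0637), Zbtb16 by 2.77 (adjusted p = 0.0688), and Klf9 by -0.51 between female and male statin livers (adjusted p = 0.0598). Of 10 copper handling genes 0 were called by edgeR in any of the 4 comparisons, against 10.4% and 6.28% of all genes between the sexes on chow and on statin and 0.100% and 0.00% for statin against chow in females and males. At an unadjusted p under 0.05 there were 2 on chow and 1 on statin between the sexes, against 24.9% and 19.4% of all genes, and 1 in females and 0 in males for statin against chow, against 10.5% and 1.96%. Atp7b, the copper pump of hepatocytes, came nearest, at -0.60 between female and male chow livers (adjusted p = 0.0592) and 0.57 for statin against chow in females (unadjusted p = 0.0092, adjusted p = 0.273).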
